A study of Mus musculus with 4 samples.

Results

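High-glycine-tyrosine keratin-associated proteins are small structural proteins of the hair shaft, and 21 of the 32286 features in the spatial count tables were taken as their genes. Chosen by symbol alone, they were all genes of the *Krtap6*, *Krtap7*, *Krtap8*, *Krtap16*, *Krtap19*, *Krtap20*, *Krtap21* and *Krtap22* number families, plus *Gm6358*, *Gm10061*, *Gm9789* and *1110057P08Rik*, which lie among them in the genome. All 21 had UMIs (unique molecular identifiers, each counting 1 captured RNA molecule). The tables came from Visium slides, on which each spot of a barcoded grid captures RNA from a small area of tissue, often from more than a single cell. Skin was taken from the back of *R26-tdTomato; Krox20-CreERT* mice at postnatal day 38 (P38), after 4-hydroxytamoxifen had been given at P2. These mice carry CreERT at the *Krox20* locus, which drives it wherever *Krox20* is active, and a tdTomato reporter. No mice without the alleles or the treatment were measured, so there was 1 group. Each of 4 slices carried 1 section from each of 3 mice, so the slices were technical replicates of the same animals and any p-value below measures the spread between slices only. The study left a section with distorted structure out of its own analysis; the labels do not say which spots it covered, so all deposited spots entered here.

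Keratin-associated proteins surround and crosslink the keratin filaments of the hair shaft. Some families are rich in cysteine, which forms disulfide bridges, and others are rich in glycine and tyrosine. In the growing follicle, cells leave the dividing matrix at the base, switch on hair keratins first and most keratin-associated proteins later, higher up in the cortex and cuticle of the shaft.

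All but 1 of the genes lay together on chromosome 16 (chr16:88868917-89508323, GRCm38, the build of the files), and *Krtap16-1* lay on chromosome 11 (chr11:99984710-99986597). In each of the 21 genes the annotated transcript with the longest coding sequence had 1 exon. Within the chromosome 16 interval of 639 kb the tables held 20 of the genes and 4 other features, of which *Gm10229*, *Gm10228* and *1110025L11Rik* had 95988, 38853 and 47542 UMIs but did not meet the rule. The coding sequences of the 20 genes on chromosome 16 bore out the name, since glycine and tyrosine made up 29.9% (*Krtap7-1*) to 69.2% (*Krtap6-1*) of their codons. *Krtap16-1* went against it: 3.78% of its 502 codons were for glycine or tyrosine and 20.1% for cysteine. It is therefore described apart where it differed. Several members are near copies of each other, such as *Krtap6-1* and *Krtap6-5* (97.3% identical over 264 aligned bases), *Krtap21-1* and *Krtap6-2* (92.2% over 344) and *Gm6358* and *1110057P08Rik* (87.1% over 403), so their UMIs may be split between the copies and the single values of such genes are uncertain.

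Coding stretches of 40 codons are shown for the most abundant member, for a *Krtap6* gene and for *Krtap16-1*, because they show the difference in composition that the name refers to. They were cut from GENCODE M21 transcripts on GRCm38 and run 5′ to 3′ on the coding strand. Capitals mark glycine and tyrosine codons in *Krtap8-1* (codons 13 to 52, with 23 such codons) and *Krtap6-5* (codons 2 to 41, with 29), and cysteine codons in *Krtap16-1* (codons 44 to 83, with 12).
Krtap8-1: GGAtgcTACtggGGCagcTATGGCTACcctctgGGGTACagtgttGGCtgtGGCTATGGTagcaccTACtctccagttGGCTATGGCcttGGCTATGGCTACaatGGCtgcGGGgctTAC
Krtap6-5: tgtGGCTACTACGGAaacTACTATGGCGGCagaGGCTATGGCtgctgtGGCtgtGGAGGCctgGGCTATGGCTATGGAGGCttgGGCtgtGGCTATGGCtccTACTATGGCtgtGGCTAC
Krtap16-1: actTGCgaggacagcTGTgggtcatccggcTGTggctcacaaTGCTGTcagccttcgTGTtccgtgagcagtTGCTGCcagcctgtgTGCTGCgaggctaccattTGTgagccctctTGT

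The start regions are shown for members with unlike patterns in the skin: *Krtap8-1* and *Krtap6-5*, which differed in their place in the follicle, and *Krtap20-2*, one of a row of neighbouring genes with a local peak. Each stretch is the 60 bases before the annotated start, from RefSeq on GRCm38.p6, on the strand of the gene. The letters TATAAA, the core of the TATA box, are in capitals.
Krtap8-1: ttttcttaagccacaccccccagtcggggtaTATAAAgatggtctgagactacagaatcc
Krtap6-5: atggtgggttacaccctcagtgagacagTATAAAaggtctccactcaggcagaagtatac
Krtap20-2: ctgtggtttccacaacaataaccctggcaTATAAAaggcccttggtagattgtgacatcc

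These 3 promoters lie at chr16:89487953-89488012 (minus strand), chr16:89047900-89047959 (minus strand) and chr16:89205801-89205860 (plus strand). Of 20 member promoters in the reference table, 9 (45.0%) held TATAAA on the gene's strand starting between 50 and 20 bases before the start, against 2.32% of all 32851 promoters there. Anywhere in the 250 bases upstream, 15 members (75.0%) held it, against 7.59% of all promoters, and on the opposite strand 3 (15%) did, against 6.26%. *Krtap7-1* is not in that table. A match describes the letters only, and the near copies among the genes share sequence.

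After spots with under 250 detected genes were removed, 6411 of 6420 spots stayed, with 91813969 UMIs in all and a median of 12618 UMIs per spot. Slice 1 had the highest median (14627, against 11662 to 11989 in the other slices). The slices shared 963 to 1403 spot barcodes by pairs, which are positions on the slide and not shared cells. The members held 1147331 UMIs, or 1.25% of the total. *Krtap8-1*, *Krtap22-2* and *Krtap7-1* made up 58.8% of these. Levels are given below as CPM (UMIs per 1000000 UMIs of the same slice or region). A UMI is counted once per captured molecule from the poly(A) end, so CPM was not divided by transcript length. In summed spots, fewer cells of a type and less RNA per cell cannot be told apart.

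*Krtap8-1*, a type I high-glycine-tyrosine protein, measured 4576, 2887, 2686 and 2377 CPM in slices 1 to 4. *Krtap22-2* measured 2804, 2315, 1987 and 1468 CPM, and *Krtap7-1* measured 2958, 1905, 1376 and 1062 CPM. All 3 were highest in slice 1 and lowest in slice 4. The *Krtap6* and *Krtap19* genes stood lower and nearer to each other: *Krtap19-9b* measured 979, 920.3, 860.5 and 755 CPM. For *Krtap6-1* the values were 884, 764, 760.3 and 687 CPM, and for its near copy *Krtap6-5* they were 860.0, 663, 743 and 732 CPM. *Krtap19-3* (985, 696, 549.9 and 534 CPM), *Krtap16-3* (850.0, 613, 441 and 399.9 CPM), *Krtap19-5* (509, 450.1, 445 and 459.7 CPM) and *Krtap19-2* (435, 320.3, 271 and 252 CPM) completed the 10 most abundant. *Krtap16-1*, the cysteine-rich member, ranged from 144 to 236 CPM. The lowest 7 members lay under 43 CPM in every slice: *Krtap19-4*, *Gm10061*, *Gm6358*, *Krtap20-2*, *1110057P08Rik*, *Krtap21-1* and *Gm9789*, the last with 219 UMIs in all.

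**Figure D1:**
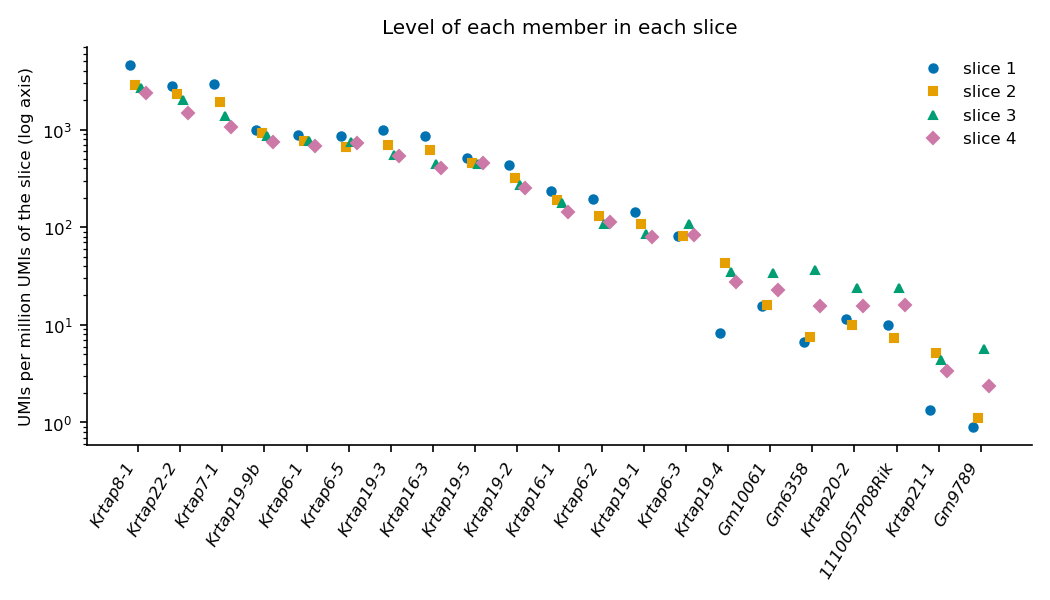
Level of each of the 21 genes (CPM, log axis) in the 4 slices, 1 point per slice, ordered by total UMIs. Most of the abundant genes have their highest point in slice 1, while *Krtap19-4* and *Krtap21-1* have their lowest there and *Gm6358* and *Gm9789* have their highest in slice 3.

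To place the genes in the skin, spots were clustered on other genes, with the 21 members left out, into 12 clusters, and those large enough for values per slice were joined into 9 regions that are called here by a leading gene. The *Lor* region is led by genes of the cornified epidermis (*Lor*, *Krt10*), the *Scd3* region by sebaceous lipid genes, and the *Slc4a1* region (clusters 4 and 7) by *Slc4a1*, *Atp2c2* and *Krt14*. The *Top2a* region is led by *Mt2*, *Mt1* and *Saa3*, followed by cell division genes such as *Top2a* and *Mki67*. With 16 clusters, a separate cluster of 442 spots was led by *Hba-a1*, *Thrsp* and *Adipoq*. Whether its spots lay in the *Top2a* region was not traced. Along the shaft, the *Krt32* region is led by *Krt32*, *Krtap11-1*, *Krt87* and *Krt31*. The *Krtap4-9* region is led by genes of the cysteine-rich families such as *Krtap4-9* and *Krtap28-13*, together with *Krt84*. The *Mlana* region is led by pigment genes, the *Myl1* region by skeletal muscle genes, and the *Car6* region by *Car6*, *Atp12a* and *Plet1*. Of the marker lists used, the *Krt32* region met the hair shaft list (6 of 9 genes), and the *Krtap4-9* region met none. The *Krtap4-9* region was chosen for comparison after its member levels had been seen.

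The *Krtap4-9* region held 41.0% of all member UMIs in 11.8% of the spots (756 of 6411). Summed over the 21 genes, its level was 57967, 48161, 43206 and 35908 CPM in slices 1 to 4 (mean 46311 ± 9258, SD, n = 4). The *Slc4a1* region followed with 25658, 16148, 15104 and 15034 CPM, and the *Krt32* region with 17952, 13398, 10021 and 8106 CPM (mean 12369 ± 4317). No slice of the *Krtap4-9* region overlapped with any slice of another region. The ranges of the *Slc4a1* and *Krt32* regions overlapped, although the *Slc4a1* region was higher in each slice. The remaining means were 6866 CPM in the *Car6* region, 5987 in the *Myl1* region, 5471 in the *Lor* region, 4996 in the *Scd3* region, 3639 in the *Mlana* region and 3052 in the *Top2a* region. Their SDs of 1131 to 2167 CPM exceeded the gaps between neighbours in this order. Compared slice by slice, only the *Car6* region stood above the next region in every slice. The level in the *Myl1* region was taken as a background, since muscle does not make hair proteins. It was uneven, as the region joined clusters 1 and 10. Cluster 10 (70 spots) held 13042, 19428 and 9252 CPM in slices 2 to 4, above the *Krt32* region in slices 3 and 4. Cluster 1 held 5500, 4129 and 4258 CPM there. *Krtap8-1* had a UMI in 918 of the 922 spots of the *Myl1* region (99.6%, Wilson 95% interval 98.9 to 99.8, counting error only, median 14001 UMIs per spot). It had a UMI in 756 of 756 spots of the *Krtap4-9* region (median 12035). For *Krtap8-1* the share of spots with a UMI therefore carried little information on place. The share of *Krtap6-5* was 99.9% in the *Krtap4-9* region, 87.6% in both the *Krt32* and the *Myl1* region and 79.0% in the *Top2a* region. Levels were used for all members.

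**Figure D2:**
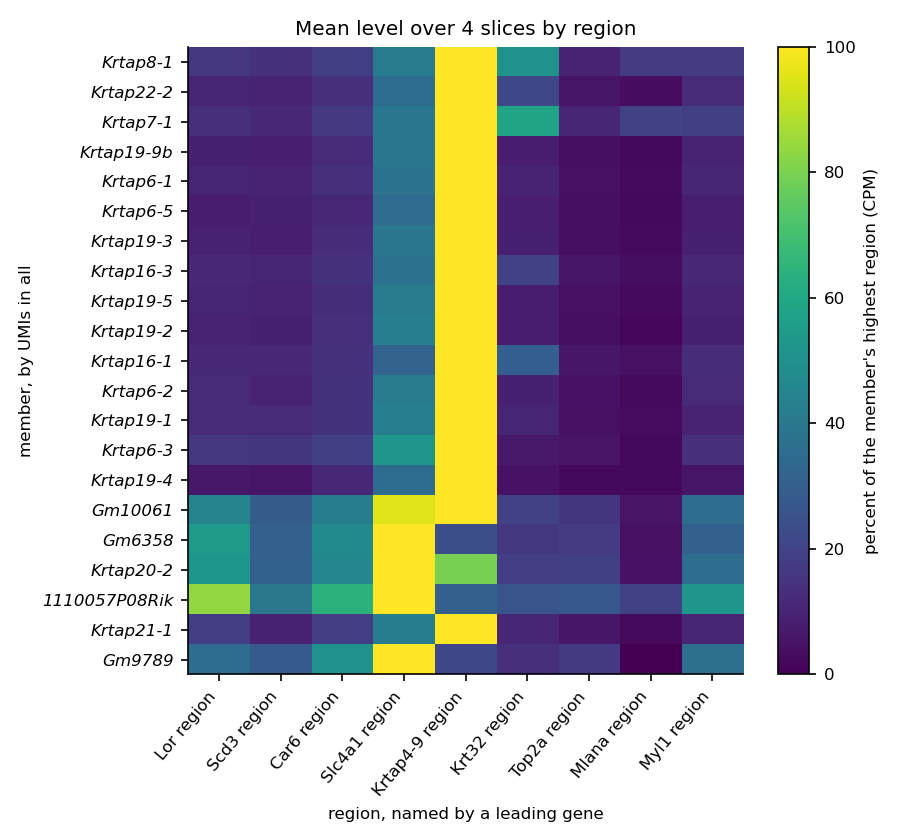
Mean level of each gene (CPM over 4 slices) in 9 regions, coloured as percent of the highest region of that gene, with genes in order of total UMIs. The *Krtap4-9* region is the brightest column for 17 genes, the brightest cells of the *Krt32* column are those of *Krtap7-1* and *Krtap8-1*, and *Gm6358*, *Krtap20-2*, *1110057P08Rik* and *Gm9789* are brightest in the *Slc4a1* region, where slice 3 raises their means.

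Of the 21 genes, 17 had their highest mean level in the *Krtap4-9* region, and *Gm6358*, *Gm9789*, *1110057P08Rik* and *Krtap20-2* had it in the *Slc4a1* region. For these 4 genes slice 3 raised the mean of the *Slc4a1* region, and the SD was near or above the mean (46.7 ± 62.3 CPM for *Gm6358* and 29.9 ± 28.1 CPM for *1110057P08Rik*). *Krtap20-2* measured 12.5, 25.7, 89.3 and 14.7 CPM there and 30.2, 25.5, 25.6 and 31.6 CPM in the *Krtap4-9* region, so that slices 1 and 4 went the other way. *Krtap8-1* measured 13448, 9205, 8554 and 7356 CPM in the *Krtap4-9* region and 7309, 4913, 4053 and 3408 CPM in the *Krt32* region. It was higher in the *Krtap4-9* region in each slice, with slice 1 of the *Krt32* region just below slice 4 of the *Krtap4-9* region. *Krtap6-5* measured 3761, 3235, 3765 and 3479 CPM against 386, 304, 241 and 279.8 CPM. *Krtap19-9b* measured 3969, 4322, 4302 and 3464 CPM against 340.2, 393, 261 and 237 CPM. For both of these genes the slices of the regions were far apart. *Krtap7-1* was nearer, with 8265, 5850.1, 4457 and 3424 CPM against 5257, 3549, 2420.4 and 1652 CPM. The ranges of its regions overlapped, although it was higher in the *Krtap4-9* region in each slice.

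In edgeR's quasi-likelihood test over 12755 features, 17 of the 21 members were higher in the *Krtap4-9* region than in the *Krt32* region at an adjusted p of at most 0.05 and 0 were lower, where 19.1% of all features were higher and 15.1% lower. The median member log2 fold was 3.41, against 0.03 for all features. The *Krtap4-9* region was chosen after its member levels had been seen, as the unnamed cluster led by *Krtap4* genes. The p-values and counts of its comparisons, here and below, therefore describe the region and are no independent test. The *Krtap19* and *Krtap6* genes rose most, with *Krtap19-4* at a log2 fold of 4.61 (SE 0.43), *Krtap19-9b* at 3.93 (SE 0.23) and *Krtap6-5* at 3.78 (SE 0.23, edgeR adjusted p = 3.14e-17). *Krtap22-2* rose by 2.45 (SE 0.31) and the cysteine-rich *Krtap16-1* by 1.99 (SE 0.21). *Krtap8-1* rose least of those that passed, by 1.21 (SE 0.30, edgeR adjusted p = 0.00162). That call was lost with 16 clusters (0.40, adjusted p = 0.354), with all *Krt* and *Krtap* genes left out of the clustering (0.46, 0.228), with RPCA integration of the slices (0.71, 0.0758) and with a minimum of 500 genes per spot (0.51, 0.167). *Krtap7-1* did not pass (1.01, SE 0.44, edgeR adjusted p = 0.0754), but did with slice as a block (1.06, adjusted p = 1.41e-16) and without slice 1 (1.10, 0.00341). *Gm6358*, *Gm9789* and *1110057P08Rik* had log2 folds of 0.80, 0.90 and 0.49 with SEs of 0.78, 1.08 and 0.59 and did not pass.

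The hair keratins that build the filaments did not follow the members between these regions. Of 8 type I hair keratins tested 2 were higher and 3 lower in the *Krtap4-9* region, and of 6 type II hair keratins 3 were higher and 2 lower. *Krt33a* and *Krt83*, the most abundant of each type, had log2 folds of 0.06 (SE 0.25) and 0.04 (SE 0.35), while *Krt34* was higher by 1.67 and *Krt87* lower (-0.68). Of 32 high-sulfur keratin-associated proteins 30 were higher and 1 lower (median 3.56). *Krtap15* was higher by 2.07 and *Krtap11-1* lower (-0.67). Of 6 crosslinking enzymes of the shaft and sheath only *Padi1*, a peptidylarginine deiminase, was higher (1.22, SE 0.10). Of 12 transcription regulators of the shaft 3 were higher and 5 lower, among them *Cux1* (-0.91, SE 0.08). These other genes took part in the clustering that defined the regions, so their counts describe the regions and are no test of them.

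Against the *Slc4a1* region, 16 members were higher in the *Krtap4-9* region and 2 lower, where 12.7% of all features were higher and 8.23% lower. The median member log2 fold was 1.63 (-0.02 for all features). The 2 lower members were *Gm6358* (-1.63, SE 0.59, edgeR adjusted p = 0.0445) and *1110057P08Rik* (-1.31, SE 0.48, edgeR adjusted p = 0.0451). Both calls were lost without slice 2, without slice 3, with each spot thinned to 5500 UMIs and with DESeq2. In slice 3 *Gm6358* measured 139.6 CPM in the *Slc4a1* region against 6.01, 20.6 and 20.4 CPM in slices 1, 2 and 4. Without slice 3, where 20 members passed the filter, 18 were higher and 0 lower, without slice 2, 15 and 0, without slice 4, 16 and 1, and without slice 1, 16 and 3. The lower calls also numbered 0 with 16 clusters, with the members kept among the variable features, without *Krt* and *Krtap* genes in the clustering and with RPCA. Against the *Myl1* region, 18 members were higher and 0 lower, where 26.2% of all features were higher and 24.9% lower, with a median member log2 fold of 3.41 (-0.03 for all features). The 3 that did not pass were *Gm6358* (-0.10, SE 0.68), *Gm9789* (-0.56, SE 0.86) and *1110057P08Rik* (-0.50, SE 0.52). The counts were 16 higher and 3 lower with 16 clusters, with the members kept or without *Krt* and *Krtap* genes, and 17 and 1 with RPCA.

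**Figure D3:**
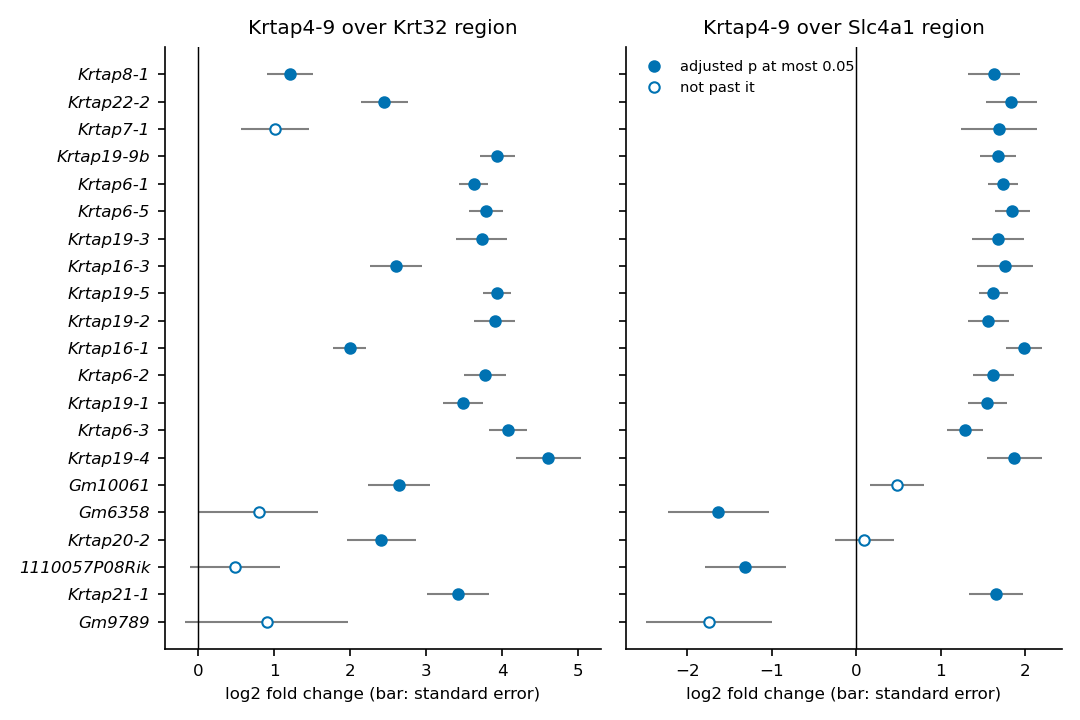
Log2 fold with SE (bars) for each of the 21 genes in the *Krtap4-9* region over the *Krt32* region (left) and over the *Slc4a1* region (right), with filled points for an edgeR adjusted p of at most 0.05. On the left 17 points are filled, all above 0, with *Krtap8-1* the nearest to 0 of them, and on the right 16 filled points lie above 0 and 2 below.

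The makeup of the members therefore differed along the shaft. *Krtap7-1* and *Krtap8-1* together made up 70.0%, 63.2%, 64.6% and 62.4% of the member UMIs in the *Krt32* region in slices 1 to 4 (mean 65.0 ± 3.4, SD, n = 4) and 37.5%, 31.3%, 30.1% and 30.02% in the *Krtap4-9* region (mean 32.2 ± 3.5). The ranges did not overlap, and the paired difference was 31.9 to 34.5 percentage points in the 4 slices (mean 32.8, SD 1.14). The *Krtap6* and *Krtap19* genes together made up 13.6% ± 2.2 in the *Krt32* region and 42% ± 4.4 in the *Krtap4-9* region. The *Mlana* region held the highest share of *Krtap7-1* and *Krtap8-1* (74.8% ± 6.3). The *Myl1* region, taken as a background, held 44.0% ± 5.0. *Krtap16-3* and *Krtap22-2* stayed closer, at 19.2% ± 2.0 in the *Krt32* region and 23.9% ± 1.9 in the *Krtap4-9* region. This pattern was noticed in these data and has no test of its own.

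Distance along the grid of spots gave a view without the deeper clusters. The number of steps from each spot to the nearest spot of the *Lor* region was counted. On this scale 0 is the epidermis, and higher numbers are called deeper. The nearest spot was sought over the whole slice, also in neighbouring sections, so a number can understate the depth within a section. Weighted by UMIs, *Krtap7-1* and *Krtap8-1* lay deepest of the abundant members, at 4.05 ± 0.28 and 3.97 ± 0.26 steps (SD, n = 4 slices). *Krtap16-1* lay at 3.83 ± 0.22, *Krtap22-2* at 3.65 ± 0.29 and *Krtap16-3* at 3.62 ± 0.31 steps. *Krtap6-5* lay at 3.41 ± 0.27 and *Krtap19-9b* at 3.37 ± 0.32 steps. In each slice *Krtap7-1* lay deeper than *Krtap8-1*, and *Krtap8-1* deeper than *Krtap6-5* and *Krtap19-9b*, although the spread between slices exceeded the smaller gaps. The values of all 21 genes were highest in slice 2 (4.44 for *Krtap7-1* and 3.82 for *Krtap19-9b*).

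**Figure D4:**
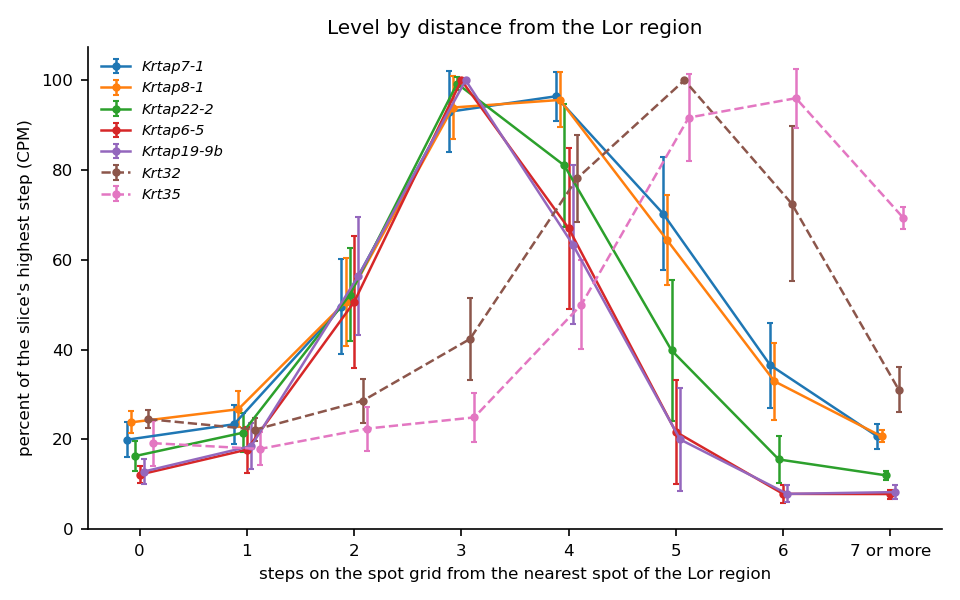
Level by distance in steps (spot to adjoining spot) from the *Lor* region (0 to 6, and 7 or more), as percent of the highest step (CPM) of the same slice, with points for the mean of 4 slices and bars for the SD. *Krtap6-5* and *Krtap19-9b* fall steeply after step 3, *Krtap7-1* and *Krtap8-1* stay high at step 4, and the hair keratins *Krt32* and *Krt35* (dashed) peak at steps 5 and 6.

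Of the 21 genes, 18 had their highest mean level at step 3, *Krtap7-1* and *Krtap16-1* at step 4, and *1110057P08Rik* at step 0. *Krtap19-9b* fell from 2731 ± 303 CPM at step 3 to 549 ± 328 at step 5, and *Krtap6-5* from 2344 ± 249 to 489.8 ± 214. *Krtap8-1* measured 5982 ± 2082 CPM at step 3, 5962 ± 1347 at step 4 and still 4076 ± 1329 at step 5. *Krt32* and *Krt35*, hair keratins that come on early in the shaft, had their highest levels at step 5 (355 ± 59.1 CPM) and step 6 (732 ± 69.9 CPM). All members together lay at 3.70 ± 0.27 steps, nearer the epidermis than the 15 hair keratins at 4.27 ± 0.29 (difference -0.575, SD 0.152, the same sign in 4 of 4 slices). The 40 other keratin-associated proteins lay at 3.62 ± 0.26, so the members were deeper by 0.0797 steps (SD 0.0521, the same sign in 4 of 4 slices). In an exact two-sided sign-flip permutation test both differences gave the smallest p that 4 slices allow, which is above 0.05.

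Comparisons of the *Krt32* region with the other regions turned on how the regions were drawn. Against the *Top2a* region, 14 members were higher and 0 lower (25.7% of all 12725 features were higher and 25.2% lower), with *Krtap7-1* at a log2 fold of 2.65 (SE 0.46), *Krtap8-1* at 2.53 (SE 0.31) and *Krtap16-1* at 2.45 (SE 0.21). Against the *Lor* region, 5 members were higher and 3 lower (28.2% of all features were higher and 29.9% lower). The 5 were *Krtap7-1* (2.22, SE 0.46, edgeR adjusted p = 7.80e-05), *Krtap8-1* (1.81, SE 0.30), *Krtap16-1* (1.52, SE 0.22), *Krtap22-2* (1.17, SE 0.29) and *Krtap16-3* (0.85, SE 0.33, edgeR adjusted p = 0.0247, lost without slice 2 at 0.135, without slice 3 at 0.0519 and with DESeq2 at 0.113). The lower members were *Krtap6-3*, *1110057P08Rik* and *Krtap20-2* (-1.04, -1.56 and -1.38). The same 5 members were higher than in the *Myl1* region, and *Krtap6-3* was lower (26.3% of all features were higher and 27.4% lower). Against the *Lor* and the *Myl1* region alike, the count of 5 higher members was close to the share over all features. With slice as a block, 5 members were higher and 7 lower against the *Lor* region, where 3887 and 4043 of 12725 features were. Against the *Myl1* region 5 were higher and 8 lower, where 3719 and 3790 features were, so these counts also stayed near that share. In the main test no *Krtap6* or *Krtap19* gene rose in the *Krt32* region above the *Lor* or the *Myl1* region. With regions drawn by marker scores, however, 16 members were higher and 0 lower in both comparisons. In both, 12 were higher with 16 clusters or RPCA, and 13 without *Krt* and *Krtap* genes or at 500 genes per spot. Lower members there numbered 0 or 1 against *Lor* and 0 or 6 against *Myl1*. These higher counts exceed the members outside the *Krtap6* and *Krtap19* families, so some genes of these families rose there.

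Against the *Slc4a1* region, 0 members were higher in the *Krt32* region and 17 lower (24.1% of all features were higher and 25.0% lower), with a median member log2 fold of -2.05. *Krtap8-1* (0.43, SE 0.29), *Krtap7-1* (0.69, SE 0.44), *Krtap22-2* (-0.61, SE 0.29) and *Krtap16-1* (-0.0023, SE 0.20) did not pass. With slice as a block the counts were 2 higher and 18 lower (3434 and 3467 of 12725 features). With 16 clusters they were 4 higher and 1 lower (3542 and 3067 of 12311 features). With regions drawn by marker scores they were 13 higher and 2 lower (1770 and 1827 of 11905 features). No direction for the members between these regions can therefore be given apart from the way they were drawn. Of the same comparison's hair keratins, 6 of 7 type I and 4 of 6 type II were higher in the *Krt32* region, and 25 of 32 high-sulfur genes were lower. The *Slc4a1* region also joined 2 clusters, and 264 of the 274 spots of cluster 7 (96.3%) lay in slice 1. Without that cluster 0 members were higher and 16 lower.

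Slice 1 differed from the other slices in the members as a group. The 21 genes summed to 16548 CPM in slice 1 (95% Poisson interval 16499 to 16596, counting error only) and to 12130.2, 10757 and 9247 CPM in slices 2 to 4, a ratio of 1.54 to the mean of the others. Slice 1 stood above every other slice, and slices 2 to 4 also differed from each other beyond counting error. With 1 slice on one side there is no test. Of the 21 members 13 were highest in slice 1, where 14.9% of the 15886 features with at least 20 UMIs were, and 0 were over 2-fold above each other slice (0.208% of all features were). The ratio was highest for *Krtap7-1* (2.04), *Krtap16-3* (1.75) and *Krtap8-1* (1.73), and close to 1 for *Krtap19-5* (1.13) and *Krtap19-9b* (1.16).

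The rise was shared with the hair keratins. These 15 genes measured 14166, 10734, 9408 and 8021 CPM in slices 1 to 4 (ratio 1.51), so the members had 1.17, 1.13, 1.14 and 1.15 UMIs per hair keratin UMI (ratio 1.02). The 40 other keratin-associated proteins had a ratio of 1.36 and 9 inner root sheath markers, for the layer around the shaft, 1.09. Slice 1 was highest in each of 3 strips of equal width that run along the length of the sections, with ratios of 1.66, 1.52 and 1.46. It was also the highest slice in each of the 9 regions, with a ratio of 1.71 in the *Krt32* region. Spots of slice 1 held more UMIs, as given above. With each spot thinned to 5500 UMIs the ratio was 1.57 (563 spots that were shallower left out). The part that the cut of the sections or the capture area played in the difference was not tested.

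Of the members, 5 went the other way and were lowest in slice 1, where 40.7% of all features were. *Krtap19-4* measured 8.32, 42.7, 34.4 and 27.6 CPM, a ratio of 0.24, although its neighbours *Krtap19-3* and *Krtap19-5* were highest in that slice. In the *Krtap4-9* region, where it is most abundant, it measured 26.6, 222, 186 and 143 CPM. *Krtap21-1* measured 1.34, 5.10, 4.40 and 3.35 CPM (ratio 0.31) over all spots and 4.73, 20.8, 18.97 and 13.3 CPM in the *Krtap4-9* region, while its near copy *Krtap6-2* was highest in slice 1 (193, 129, 107 and 112 CPM). For both genes slice 1 lay below all other slices with no overlap. *Gm9789*, *Gm6358* and *Gm10061* were the other members lowest in slice 1, with ratios of 0.29, 0.34 and 0.65.

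Those last 3 genes were also among 6 of the 21 members highest in slice 3, together with *1110057P08Rik*, *Krtap20-2* and *Krtap6-3*. Of all features 25.2% were highest there, so the count of members is close to that share. The 6 are consecutive members on the plus strand of chromosome 16, from *Krtap6-3* to *Krtap20-2* (chr16:89084015-89206394, 122 kb), with 1 other feature between them that had 1 UMI. *Gm6358* measured 6.69, 7.58, 36.3 and 15.7 CPM in slices 1 to 4, *Gm10061* 15.7, 16.04, 33.6 and 22.6 CPM, and *Krtap20-2* 11.4, 10.03, 23.7 and 15.6 CPM. *1110057P08Rik* measured 10.03, 7.25, 23.8 and 16.1 CPM, and *Gm9789* 0.892, 1.12, 5.71 and 2.37 CPM. Slice 3 was the high one for each, with slice 4 next. *Krtap6-3*, the first of the row, measured 82.2, 81.1, 107 and 83.9 CPM.

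In slices 2 to 4 the 5 genes from *Gm6358* to *Krtap20-2* had a local peak in a small patch towards one end of the first strip. When that strip was cut into 10 segments of equal length, their summed level in slice 3 was 1354 and 1239 CPM in segments 7 and 8 and at most 152 CPM in segments 1 to 6. Slice 2 reached 592 CPM in segment 8, and slice 4 reached 676 and 756 CPM in segments 9 and 10. Slice 1 had no such segment, with 23.2 to 99.1 CPM along the strip. The pair of adjoining segments with the highest level held 57, 80 and 57 spots in slices 2, 3 and 4, and there the 5 genes measured 514, 1298 and 712 CPM, against 29.1, 60.5 and 49.0 CPM in the rest of the same slice (17.7-, 21.4- and 14.5-fold). These 3.26%, 5.14% and 3.91% of the spots held 32.6%, 53.3% and 34.7% of the UMIs of the 5 genes. In slice 1 the highest pair lay near the other end and reached 94.1 CPM against 42.05 elsewhere (2.24-fold). The place was chosen on these values, so the folds are a description with no test. Apart from *Krtap6-3* (1.94-, 4.72- and 2.90-fold), the abundant members did not share the peak, and the 21 genes together were at 0.619-, 1.04- and 0.789-fold of their level elsewhere.

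All features were ordered by the lowest log2 fold of patch over elsewhere among the 3 slices (with 5 CPM added). Ranks 1 to 5 went to *Gm6358* (3.65), *1110057P08Rik* (3.62), *Gm10061* (2.97), *Krtap20-2* (2.83) and *Gm9789* (1.96). The patch had been placed by the summed level of these same 5 genes, so their ranks are a description and no test. The next were *Gpx3* (1.51) and the fast muscle myosins *Myh4* (1.49) and *Myh2* (1.05). *Cfd* (1.00), the keratin *Krt16* (0.94) and the muscle gene *Actn3* (0.92) followed, and *Krtap6-3* was rank 12 (0.92). Some muscle genes thus rose in the patch, beside genes that are not of muscle. Of the patch's spots in slices 2, 3 and 4, 36.8%, 30% and 24.6% belonged to the *Myl1* region. Those 59 spots had 271 CPM of the 5 genes, whereas the patch's 28 spots of the *Slc4a1* region had 6755 CPM. Its 17 spots of the *Car6* region came next with 1836 CPM, and its 8 spots of the *Krtap4-9* region had 254 CPM. A UMI of the 5 genes was found in 85.6% of the patch's spots, against 36.5% of the other spots of slices 2 to 4 and 42.3% of those of slice 1. A pair of spots in slice 3 stood out, with 436 of 4772 and 377 of 6110 UMIs from the 5 genes, and the highest spot of slice 2 had 80 of 5197. These 3 spots were of the *Slc4a1* region and held most of the 1157 UMIs of the 5 genes in its 28 patch spots. The pair in slice 3 also held most of the 1405 UMIs of the 5 genes in that slice's patch. The 21.4-fold rise there and the level of the *Slc4a1* spots thus rested largely on few spots. In the spot with 436 UMIs the 5 genes made up 51.6% of the member UMIs and *Krtap8-1* had 6 UMIs. What the patch is was not tested, and the labels do not tie the strips to mice. Of the summed UMIs of *Xist*, a female marker, and of Y-linked genes, *Xist* held 79.9% to 86.7% in strip 3. In strips 1 and 2 it held 9.73% to 15.1%, so the strips did not all hold skin of the same sex.

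**Figure D5:**
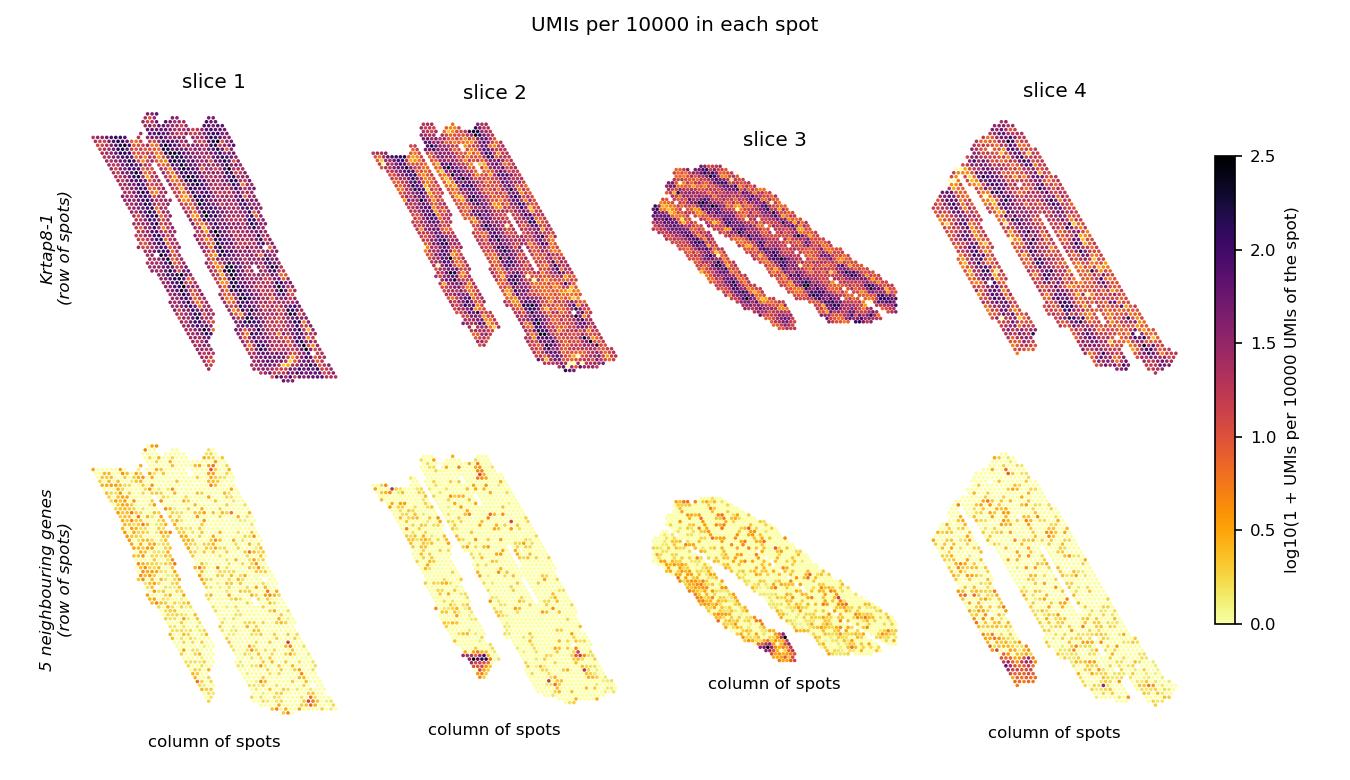
Position of every spot on the grid (columns across, rows down), coloured by log10(1 + UMIs per 10000 UMIs of the spot) for *Krtap8-1* (top) and for the sum of the 5 neighbouring genes from *Gm6358* to *Krtap20-2* (bottom) in slices 1 to 4. *Krtap8-1* forms dark bands along the length of every section, while the 5 genes are dark in a patch towards the lower end of the leftmost section in slices 2, 3 and 4 and not in slice 1.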

How the data were processed

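Spatial UMI counts per feature and spot were used as the authors deposited them, with barcode, feature and position files for each of 4 slices. Per the file headers the counts came from Space Ranger 2.0.1, per the labels on mm10, and they are raw counts that were not normalized. Pooling 3 mice per slice and 4 slices of the same mice leaves no replicate animals in the tests. The members and gene lists were chosen with earlier results of these data known.

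Spots with at least 250 genes were kept. Clusters came from Seurat 5.3.0 (2000 variable features without the members and tdTomato, 30 components, resolution 0.65, R 4.3.3), and were joined into regions by marker lists. UMIs were summed per slice and region (at least 10 spots) and entered the quasi-likelihood test of edgeR 4.0.16, after filterByExpr and TMM scaling, with Benjamini-Hochberg adjustment over all features. Slices pair the regions, since each slice holds the same sections, and deviations from the region means correlated between regions of the same slice at 0.0677 to 0.19 (12755 features, 8 regions). DESeq2 1.42.0, other clusterings, filters, marker scores, thinning to 5500 UMIs and each slice left out were alternatives. In data simulated for the *Krt32* against *Slc4a1* comparison, 97% of 200 changed features among 12725 were recovered. The changed features were drawn from those above a minimum mean count, with a fold of fixed size and no slice effect. The share therefore does not cover members with few UMIs, such as *Gm9789* and *Krtap21-1*. No doublet caller was run, as spots hold several cells. Named with values were the 10 members with the most UMIs, the most abundant of each number family, the members without a *Krtap* symbol, and the 3 highest and 3 lowest ratios of slice 1. *Krtap6-2*, *Krtap6-3* and *Krtap19-4* in the region comparisons, the *Krtap4-9* region and the patch were chosen after their values were seen. Intervals cover counting error only.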

Additional observations from a re-analysis of the deposited data

Results flagged for a closer look

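Dixon's ratio was applied to the 4 slices for 33 groups of values, of which chance marks about 1 in 20, and 2 were marked. *Krtap6-3* measured 107.4 CPM over all spots in slice 3, against 81.1 to 83.9 CPM in the other slices, and it lies beside the 5 genes with the local peak. The summed member level in the *Slc4a1* region was 25658 CPM in slice 1, against 15034 to 16148 CPM in the others, and cluster 7 of that region lay almost wholly in slice 1.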

How the results depend on the processing

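Region definitions moved the *Krt32* region most. Against the *Slc4a1* region, 17 called members became 5 with 16 clusters (4 higher, 1 lower) and 15 with marker scores (13 higher, 2 lower), both reversals of the balance, and 11 with the members kept among the variable features. Against the *Lor* region, 8 became 12 with 16 clusters and with RPCA (12 higher and 0 lower in both). They became 14 without *Krt* and *Krtap* genes in the clustering and at 500 genes per spot (13 higher and 1 lower in both), and 16 with marker scores. The balance turned with no expression filter (12, of which 5 higher and 7 lower). Against the *Myl1* region, 6 became 18 with 16 clusters, 12 with members kept, 19 without *Krt* and *Krtap* genes, 18 with RPCA, 16 with marker scores and 13 at 500 genes, and the balance turned with no filter (13, of which 5 higher and 8 lower). The summed level of 12369 CPM in the *Krt32* region became 19331 with 16 clusters, 19317 without *Krt* and *Krtap* genes, 17414 with RPCA, 34242 with marker scores and 19476 at 500 genes. The mean distance of 3.70 steps became 4.59 with 16 clusters, 4.53 with RPCA and 4.02 with marker scores. The share difference of 32.8 points became 29.7 with 16 clusters, 29.4 without *Krt* and *Krtap* genes, 30.7 with RPCA, 29.8 at 500 genes and 31.1 after thinning. The cause of these shifts was not tested.

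The slice 1 ratio of 1.54 became 1.57 after thinning, 1.02 per hair keratin UMI, 1.71 in the *Krt32* region, 1.66, 1.52 and 1.46 in strips 1, 2 and 3, and 1.36, 1.54 and 1.79 with slice 2, 3 or 4 alone as the reference. Members over 2-fold higher in slice 1 numbered 1 with slice 3 as the reference (*Krtap7-1*) and 2 with slice 4 (*Krtap16-3* and *Krtap7-1*).

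With slice as a block to pair the regions, 20 members were called for the *Krt32* region against the *Slc4a1* region (2 higher, 18 lower), 12 against *Lor* (5 higher, 7 lower), 13 against *Myl1* (5 higher, 8 lower) and 15 against *Top2a*. The counts against *Lor* and *Myl1* were near the share over all features. For the *Krtap4-9* region it gave 18 against *Krt32*, 20 against *Slc4a1* (17 higher, 3 lower) and 18 against *Myl1*.

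Leaving out each slice in turn, with the regions kept, gave 14 to 19 called members for *Krt32* against *Slc4a1*, 6 to 9 against *Lor*, 5 to 7 against *Myl1* and 13 to 14 against *Top2a*, and for the *Krtap4-9* region 17 to 18 against *Krt32*, 15 to 19 against *Slc4a1* and 18 against *Myl1*. The level ranged from 10508 to 13790.4 CPM, the distance from 3.57 to 3.77 steps and the share difference from 32.3 to 33.1 points. Counts of both directions together for the *Krtap4-9* region stayed within 1.5 times their value under every alternative run, which did not include marker scores, but the lower calls varied from 0 to 3 both against *Slc4a1* (2 in the report) and against *Myl1* (0 in the report). Of 312 single-member values for it against the *Krt32* region, 304 kept direction and call, 4 lost the call (all *Krtap8-1*) and 4 gained it. Members with few UMIs, such as *Gm9789* and *Krtap21-1*, limit what the depth can show for them.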
